A study of Mus musculus with 12 samples.

Results

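The genes described here are the Myc family and its partners: Myc, Mycn, Mycl, Max, Mxd1, Mxd3, Mxd4, Mxi1 and Mnt. They were chosen by symbol, 9 of the 32121 genes counted, and all 9 were among the 17328 genes that passed a filter on low counts. RNA was sequenced from the spleens of 6 C57BL/6 mice, cut into 2 pieces per animal, which gave 12 libraries. The labels give 3 animals the genotype VEC-Cre, SB Transposase and onc2, a Sleeping Beauty transposon screen that the series title directs at the endothelium; they are called SB here. The other 3 animals are labelled WT, and the labels list none of those 3 alleles for them. The 2 pieces of an animal were taken to ask how alike the parts of 1 spleen are. The labels name them sections 1 and 2 in SB and sections A and B in WT. Here section A is called piece 1 and section B piece 2, a match that the labels do not give. Ages, insertion sites and the cells in which the transposon moved were not analysed here, and VEC promoter activity also extends to the endothelium from which blood cells arise in the embryo.

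Myc, Mycn and Mycl are transcription factors that bind DNA only as a pair with Max, at a short sequence called the E-box, and mostly raise transcription of genes for growth and division. Mxd1, Mxd3, Mxd4, Mxi1 and Mnt pair with the same Max at the same sequence and recruit Sin3 and histone deacetylases, which lowers transcription. In blood-forming tissue Myc is high in dividing progenitors, and Mxd1 is known to rise as myeloid cells mature.

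The network's own binding sequence stands in the start regions of some of its members, so the stretches that hold it are shown first. RefSeq windows of GRCm38.p6, each from 250 bases before to 50 bases after a gene's start, were matched by symbol for 8 of the 9 genes, giving 10 windows, 3 of them for Mxi1. The E-box CACGTG, which reads the same on both strands, was in 3 of these 10 windows and in 7.15% of all 32851 windows. Capitals mark the E-box and the strand shown is that of the gene.
Mxd4: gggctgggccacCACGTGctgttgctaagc
Mnt: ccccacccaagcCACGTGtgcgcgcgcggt
Max: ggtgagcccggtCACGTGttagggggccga
The stretch of Mxd4 lies at chr5:34187912-34187941 on the minus strand, with the E-box starting at position -219, counting the base before the start site as -1. In Mnt it lies at chr11:74830789-74830818 on the plus strand, with the E-box at -123. In Max it lies at chr12:76962234-76962263 on the minus strand, and the E-box at -3 reaches across the start site. The windows of Mycn, Mycl, Mxd1, Mxd3 and Mxi1 held no CACGTG, which says only that these letters are not in those windows. The related CACGCG, searched on both strands, was in the window of Mycl and in 9.27% of all windows. The 3 genes with an E-box, Mxd4, Mnt and Max, had log2 changes of -0.25, -0.34 and -0.25 in SB against WT spleens, none of which passed the test described with the genes.

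The libraries held 14320833 to 22031026 counts each. Levels are given as CPM, the counts relative to a library's total after TMM scaling, which evens out differences in RNA composition. The cell content of the SB spleens was far from that of the WT spleens. Summed B cell markers ranged from 61.9 to 167 CPM in SB libraries and from 7397 to 9532 CPM in WT libraries, and T cell markers from 13.6 to 118 against 827 to 1093 CPM. Proliferation markers stood at 1945 to 3943 CPM against 388 to 961. Summed erythroid and macrophage markers were highest in SB animal 2, at 9337 to 9478 and 12950 to 13030 CPM. The other SB libraries held 1330 to 3115 and 883 to 1217 CPM, within the WT ranges of 623.5 to 3346 and 666.5 to 1353 CPM. Taken gene by gene, the median erythroid difference from WT on log2(CPM + 1) was 0.97, 3.13 and 3.04 in SB animals 1, 2 and 3. For these genes SB animal 3 was thus close to SB animal 2, which the sum hides. For macrophage markers the medians were -1.07, 3.71 and -0.20. Megakaryocyte markers ranged from 1024 to 4767 CPM in SB and from 194 to 687 in WT. Summed granulocyte markers stood at 513 to 2041 against 38.4 to 322 CPM. Gene by gene their median difference from WT on log2(CPM + 1) was -0.14, 3.41 and 2.89 in SB animals 1, 2 and 3. In SB animal 1 the granulocyte genes were thus not raised as a set. Plasma cell markers stood at 270 to 926 against 1587 to 2780 CPM. Endothelial markers ranged from 529 to 902 CPM in SB and from 508 to 640 CPM in WT. No marker gene was at 0 in any library. By the test described with the genes, 7.99% of all genes were higher in SB and 9.1% lower. Of the markers, 8 of 8 B cell, 5 of 8 T cell and 2 of 6 plasma cell genes were lower in SB. Higher were 4 of 8 erythroid, 2 of 7 megakaryocyte, 3 of 8 granulocyte, 0 of 8 macrophage and 7 of 8 proliferation markers. Of 7 endothelial markers, 2 were higher and 1 lower. Xist RNA was at 2265 and 1001 CPM across SB animals 1 and 2 and at 2.44 CPM or less elsewhere, and the Y-linked Ddx3y was at 0.255 and 0.181 CPM across SB animals 1 and 2 and above 60 CPM elsewhere. Sex-linked RNA thus differed both within SB and between the genotypes. The part of cell content or sex in the results for the Myc network was not tested.

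Across the 3 SB and 3 WT animals, with the pieces of an animal summed, 1 of the 9 genes passed the test: Mxi1 rose. Passing means an adjusted p under 0.05 in edgeR's quasi-likelihood test with Benjamini-Hochberg adjustment over all genes tested, a rule met by 17.1% of those genes, 7.99% higher and 9.1% lower in SB. At an unadjusted p under 0.05 in edgeR there were 3, Myc, Mycl and Mxi1, beside 5995 of the 17328 genes tested. The same 3 passed in DESeq2 and in limma-voom, where 24.9% and 25.7% of all genes did. With 1 animal left out, 23.3%, 34.4% and 17.2% of all genes passed without SB animals 1, 2 and 3, and 2.22%, 1.4% and 2.09% without WT animals 1, 2 and 3, and the values without an animal given with each gene stand against these shares. The SB and WT libraries did not overlap at all for 2 of the 9, Mycl and Mxi1, as for 29.6% of genes. Without TMM scaling Max joined them, making 3 of the 9 against 28% of genes. In bulk tissue, fewer cells of a type and less RNA per cell cannot be told apart.

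**Figure D1:**
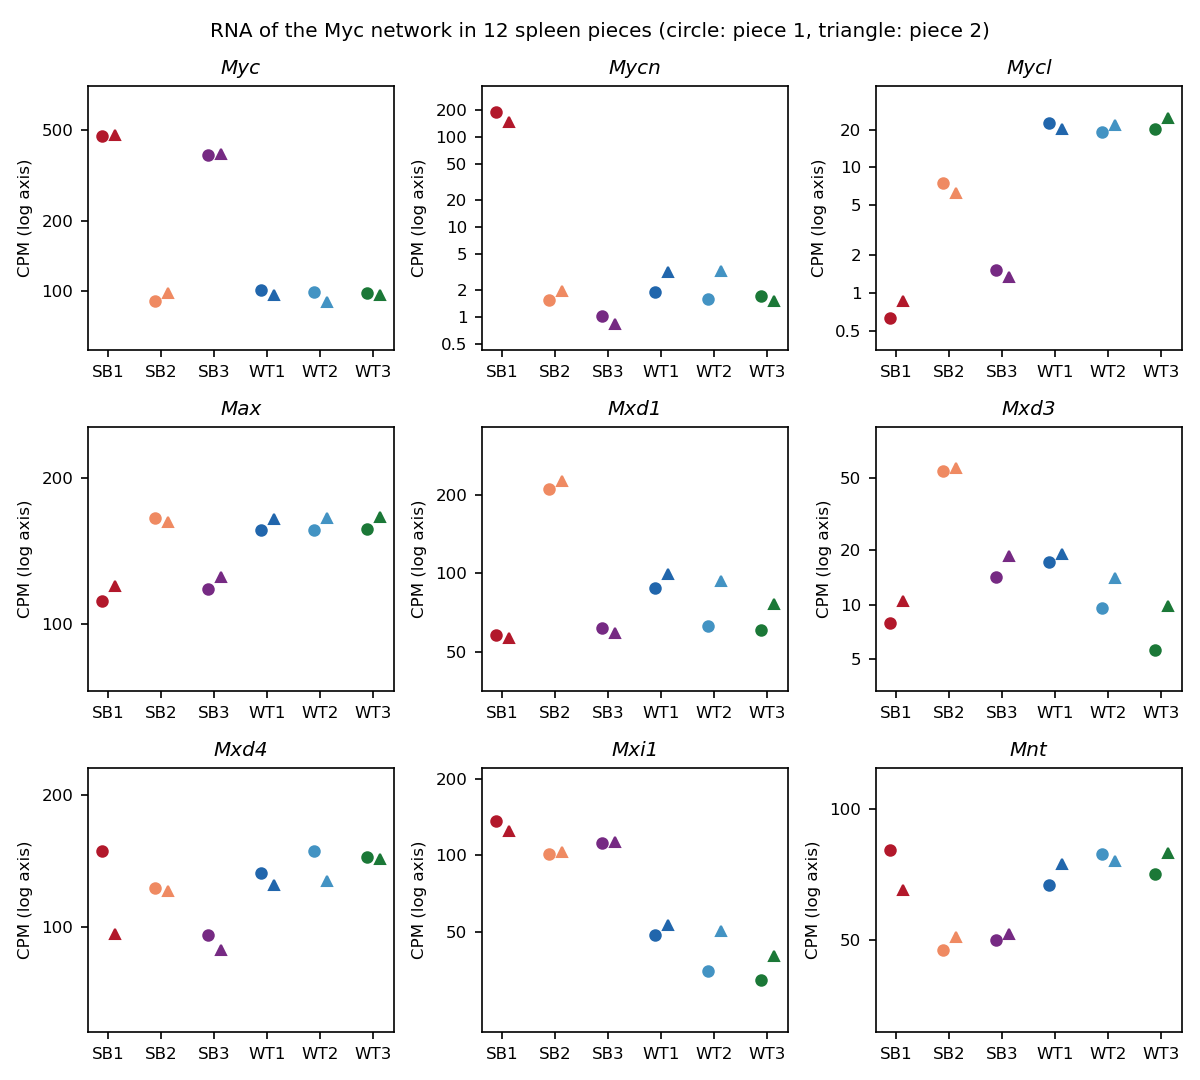
CPM on a log axis of each of the 9 genes in the 12 libraries, grouped by animal, with a circle for piece 1 and a triangle for piece 2. Myc is high in SB1 and SB3 but not SB2, Mycn is high in SB1, Mxd1 and Mxd3 are high in SB2, and Mycl and Mxi1 separate all SB from all WT libraries.

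Myc itself, the family member found in most dividing cells, lies at chr15:61985391-61990374 on the plus strand (GRCm38, ENSMUSG00000022346). Its libraries stood at 472 and 475 CPM in SB animal 1, 90.4 and 97.6 CPM in SB animal 2, and 389 and 393 CPM in SB animal 3. The 6 WT libraries lay between 89.8 and 100.4 CPM. So SB animals 1 and 3 were at 4.95 and 4.14 times the WT mean, with both pieces above every WT library, and SB animal 2 was at 0.992 times. Over animals the level was 321.7 ± 200.2 CPM in SB and 95.7 ± 1.97 CPM in WT (mean ± SD, n = 3 each). Its log2 change was 1.75 (SE 0.57), which did not pass, with an adjusted p of 0.0879 in edgeR. Without SB animal 2 it was 2.18, with an adjusted p of 0.00124. Without TMM scaling SB animal 2 was at 83.9 CPM, under the WT mean of 96.6 ± 2.51 CPM, so its place beside the WT animals depends on the scaling.

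Mycn, the paralogue known from embryonic and neural tissue and from early blood progenitors, lies at chr12:12936093-12941914 on the minus strand (ENSMUSG00000037169). It was at 187 and 147 CPM in the pieces of SB animal 1, from 3587 and 2382 counts. Every one of the other 10 libraries, SB and WT, lay between 0.835 and 3.20 CPM, from 17 to 58 counts. Mycn was thus high in 1 animal and in both of its pieces, at 77.3 times the WT mean of 2.19 ± 0.52 CPM. SB animals 2 and 3 were at 0.817 and 0.432 times that mean. The log2 change over all SB animals, 4.71 (SE 2.04), did not pass (edgeR adjusted p = 0.163). Without SB animal 1 it was -0.68, also not passing, with an adjusted p of 0.298.

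Mycl, the third paralogue, which is known from dendritic cells, lies at chr4:122995652-123002485 on the plus strand (ENSMUSG00000028654). Its level was 0.626 and 0.866 CPM in SB animal 1, 7.45 and 6.27 CPM in SB animal 2, and 1.53 and 1.33 CPM in SB animal 3. WT libraries held 19.3 to 24.7 CPM, all above every SB library. Animal means were 2.99 ± 3.30 CPM in SB and 21.2 ± 0.844 CPM in WT (n = 3 each). SB animals 1, 2 and 3 were 28.8, 3.13 and 14.6 times lower than the WT mean, from as few as 12 counts in a library. In SB against WT this was -2.83 on the log2 scale (SE 0.849), which did not pass, with an adjusted p of 0.0718 in edgeR. Without SB animal 2 it was -4.27, with an adjusted p of 0.00377. Summed B and T cell markers were also low in every SB library. Among the SB animals Mycl was lowest in animal 1, while these markers were lowest in animal 3. B cell markers stood at 99.3 and 151 CPM in animal 1 and at 62.9 and 61.9 CPM in animal 3. T cell markers stood at 22.95 and 29.4 CPM in animal 1 and at 13.6 and 16.65 CPM in animal 3. The part of lymphocyte content in the level of Mycl was not tested.

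Max, the partner that these factors share, lies at chr12:76937269-76962201 on the minus strand (ENSMUSG00000059436). It moved far less than the Myc genes. SB libraries held 112 and 120 CPM in animal 1, 165 and 162 CPM in animal 2, and 118 and 125 CPM in animal 3. WT libraries lay between 156 and 166 CPM, so SB animals 1 and 3 were under every WT library and SB animal 2 was among them. Without TMM scaling SB animal 2 held 147 and 143 CPM, also under every WT library, the lowest of which was at 155 CPM. A log2 change of -0.25 (SE 0.178) in SB against WT did not pass in edgeR (adjusted p = 0.365), and without SB animal 2 it was -0.42, with an adjusted p of 0.0289. A predicted gene, Gm47218, overlaps Max on the same strand but held only 588 counts in all libraries together.

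Among the antagonists, Mxi1 was the gene that rose. It is also called Mxd2, and lies at chr19:53310518-53375810 on the plus strand (ENSMUSG00000025025). Its libraries stood at 137 and 125 CPM in SB animal 1, 101 and 103 CPM in SB animal 2, and 111 and 113 CPM in SB animal 3. WT libraries ranged from 32.3 to 52.9 CPM, so the lowest SB library was well above the highest WT library. The animals were at 3.07, 2.39 and 2.65 times the WT mean, with 116 ± 14.6 CPM in SB and 42.9 ± 7.65 CPM in WT (n = 3 each). The log2 change was 1.44 (SE 0.195), with an adjusted p of 0.0099 in edgeR. It was lost without WT animal 2, where the adjusted p was 0.0722, and without WT animal 3, where it was 0.0638, with log2 changes of 1.42 and 1.30. Ranked by Mxi1, the 6 WT libraries stood in the order of their summed erythroid markers. Among the SB animals Mxi1 was highest in animal 1, where those markers were lowest.

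Mxd1, also known as Mad1 and tied to the maturation of granulocytes, lies at chr6:86647042-86669161 on the minus strand (ENSMUSG00000001156). It was at 212 and 227 CPM in SB animal 2 and at 56.5 to 61.5 CPM in the 4 libraries of SB animals 1 and 3. WT libraries spanned 60.7 to 99.3 CPM. SB animal 2 was 2.79 times the WT mean, while the other SB animals lay at or under the lowest WT levels. The log2 change of 0.51 (SE 0.565) did not pass in edgeR (adjusted p = 0.559), and it was -0.42 without SB animal 2 (adjusted p = 0.123).

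Mxd3, the antagonist best known from dividing cells, showed the same standing of SB animal 2. It lies at chr13:55325168-55329823 on the minus strand (ENSMUSG00000021485). SB animal 2 held 54.3 and 56.5 CPM, 4.48 times the WT mean of 12.4 ± 5.42 CPM. SB animals 1 and 3 held 7.93 and 10.4 CPM and 14.3 and 18.5 CPM, within or near the WT range of 5.61 to 19.0 CPM. The log2 change of 1.12 (SE 0.731) did not pass in edgeR (adjusted p = 0.323). Without SB animal 2 it was 0.044. The gene overlaps Prelid1 on the other strand, and in unstranded counts reads from the stretch that both cover cannot be told apart. Prelid1 was at 119, 124 and 110 CPM across SB animals 1, 2 and 3 and at 93.7 ± 1.08 CPM in WT.

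Mxd4 lies at chr5:34173883-34187720 on the minus strand (ENSMUSG00000037235). Its libraries ranged from 89.0 to 149 CPM in SB and from 125 to 149 CPM in WT. Of all differences between the pieces of an SB animal over the 9 genes, the widest was here, in SB animal 1, with 149 CPM in piece 1 and 96.6 CPM in piece 2, a difference of -0.622 on log2(CPM + 1). The log2 change of -0.25 (SE 0.166) did not pass in edgeR (adjusted p = 0.325).

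Mnt, the broadly expressed antagonist that balances Myc in resting and dividing cells, lies at chr11:74830920-74845725 on the plus strand (ENSMUSG00000000282). SB animal 1 held 80.5 and 65.1 CPM, and SB animals 2 and 3 held 47.4 to 51.6 CPM. WT libraries lay between 67.0 and 79.2 CPM, above SB animals 2 and 3, while SB animal 1 had 1 library above and 1 below them. The log2 change of -0.34 (SE 0.197) did not pass in edgeR (adjusted p = 0.265). Without SB animal 1 it was -0.55, with an adjusted p of 0.0353.

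**Figure D2:**
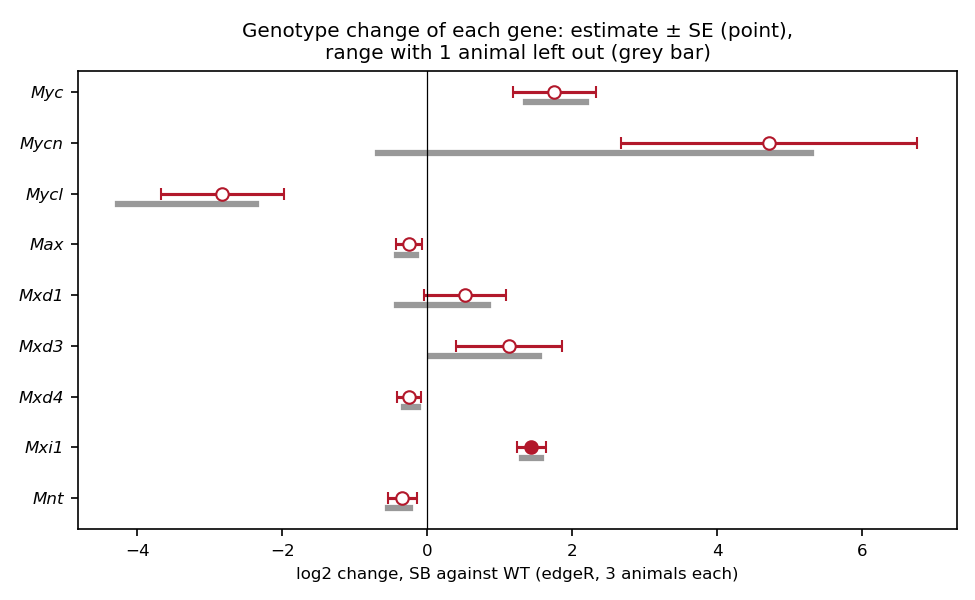
Log2 change of each gene in SB against WT, with its SE, and as a grey bar the range when 1 animal is left out. Only Mxi1 is drawn filled, at 1.44, for passing the test, and the bars of Mycn and Mxd1 cross 0.

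The 3 SB animals differed from one another for most of the network. An F test over the 2 pieces of each animal, again with edgeR, called 7 of the 9 genes unequal among SB animals, all but Mxd4 (adjusted p = 0.0751) and Mxi1 (adjusted p = 0.134). This is close to the 72.8% of all genes called in that way. The adjusted p was 1.37e-09 for Mycn, 1.2e-08 for Myc and 6.26e-07 for Mycl. The spread it uses is that between pieces of 1 spleen, not between animals. Among the WT animals, 0 of the 9 were unequal by edgeR, where 0.335% of all genes passed, or 52 of 15523. In edgeR 2 of the 9 had an unadjusted p under 0.05 (Mxd3 and Mxi1), beside 1010 of all genes. DESeq2 called 1 of the 9, Mxd3, beside 327 of all genes.

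Levels of different genes were compared per kb of exon. In WT spleens Max stood highest at 44.4 ± 0.103 CPM per kb, then Myc at 35.2 ± 0.724, Mnt and Mxd4 at 16.0 ± 0.621 and 16.0 ± 0.883, and Mxd1 at 11.2 ± 1.90 (SD, n = 3). Mxi1 at 6.29 ± 1.12, Mxd3 at 5.26 ± 2.29 and Mycl at 5.26 ± 0.209 CPM per kb followed, and Mycn was last at 0.664 ± 0.156. Mnt and Mxd4 did not differ beyond their spread, nor did Mxi1, Mxd3 and Mycl.

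The order changed in each SB animal. Myc was first in SB animals 1 and 3, at 174 and 146 CPM per kb, above Max at 32.1 and 34.3. In SB animal 1 Mycn came second, at 51.3 CPM per kb. In SB animal 2 Max stayed first at 45.5 CPM per kb, Myc was at 34.9, and Mxd1 and Mxd3 followed at 31.3 and 23.5, above Mxi1, Mxd4 and Mnt.

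Summed per-length levels put the Myc genes beside their antagonists. Myc, Mycn and Mycl together came to 226, 37.1 and 146 CPM per kb in SB animals 1, 2 and 3, and to 40.2 to 41.9 in WT animals. Mxd1, Mxd3, Mxd4, Mxi1 and Mnt together came to 61.9, 95.0 and 54.5 CPM per kb in SB animals and to 50.7 to 58.8 in WT. The ratio of the first sum to the second was 3.65, 0.391 and 2.69 in SB animals and 0.712 to 0.815 in WT animals, so 2 SB animals lay above the WT range and 1 below it. Mycn made up 22.7% of the Myc sum in SB animal 1, and Mycl made up 12.5 to 13.2% in WT animals against 4.52% or less in SB animals. RNA sums say nothing of protein amounts.

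**Figure D3:**
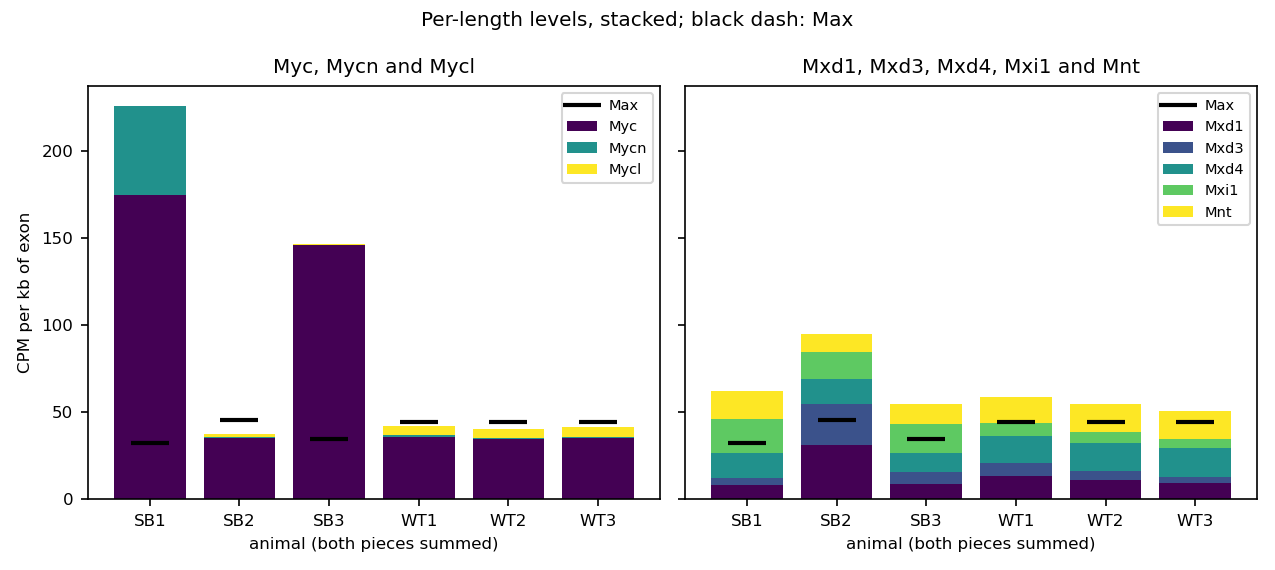
Stacked CPM per kb of exon in each animal, for the 3 Myc genes on the left and the 5 antagonists on the right, with a black dash for Max. The Myc stack reaches 226 in SB1 and 146 in SB3 but 37.1 in SB2, where the antagonist stack is tallest at 95.0.

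The wider network holds Mga and Mlx, further partners in dimers with Max or Mlx, and the nutrient sensors Mlxip and Mlxipl. Of 5 such relatives measured, counting the Myc-like gene Bmyc, 1 rose and 0 fell in edgeR, where 17.1% of all genes passed, and 2 did not overlap between genotypes, where 29.6% of all genes did not. Mlxipl rose from 0.112 ± 0.0128 CPM in WT to 1.08, 2.06 and 2.30 CPM across SB animals 1, 2 and 3, at a low level throughout, by 3.97 on the log2 scale (SE 0.472, adjusted p = 0.00733). Bmyc stood at 3.12, 5.26 and 8.72 CPM across SB animals and 14.8 ± 0.787 CPM in WT, a log2 change of -1.38 that did not pass (adjusted p = 0.0735). Changes of Mga, Mlx and Mlxip were -0.30, -0.10 and -0.44 on the log2 scale and did not pass. The median log2 change was -0.30 over these relatives and 0.11 over all genes tested.

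Of 13 cofactors and corepressors that Myc or its antagonists recruit, 1 fell and 0 rose, against 17.1% of all genes passing: the deacetylase Hdac1, at 40.5, 35.1 and 35.3 CPM across SB animals and 52.3 to 58.4 CPM in WT libraries, with a log2 change of -0.58 (edgeR adjusted p = 0.048). The list's median log2 change was 0.22. Without SB animal 2, 6 of the 13 passed, in a fit where 34.4% of all genes did. Ruvbl2, an ATPase that binds Myc, was at 168, 65.5 and 124 CPM across SB animals 1, 2 and 3, with WT libraries between 56.0 and 65.2 CPM, and did not pass.

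Of 12 genes that control how long Myc protein lasts, 1 rose and 1 fell, near the 17.1% of all genes that passed, with a median log2 change of 0.25. Skp2, a ubiquitin ligase subunit, rose by a log2 change of 1.54 (adjusted p = 0.0178), and Usp28, a deubiquitinase that stabilises Myc, fell by 1.08 on the log2 scale (adjusted p = 0.011), both in edgeR. Usp28 was at 21.6, 20.1 and 18.7 CPM across SB animals, with WT libraries between 40.0 and 44.4 CPM. The 2 genes moved in all 3 SB animals, SB animal 2 included. Fbxw7, the ligase subunit that marks Myc for destruction, was at 38.2, 37.5 and 36.5 CPM across SB animals and 46.2 to 54.2 CPM in WT libraries, without passing.

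Known Myc targets in ribosome building stood above WT in SB animals 1 and 3, the 2 with high Myc, and near WT in SB animal 2. Of 20, 1 rose and 0 fell: Gnl3, a nucleolar protein, up by 1.17 on the log2 scale (SE 0.268), with an adjusted p of 0.0361 in edgeR. All 20 were above every WT animal in SB animals 1 and 3, and 10 of 20 in SB animal 2, a standing that 44.4%, 44.2% and 43.6% of all genes tested had in SB animals 1, 3 and 2. Median differences from WT, on log2(CPM + 1), were 1.10 in SB animal 1, 0.84 in SB animal 3 and 0.035 in SB animal 2, against medians of all genes between -0.018 and -0.013. Nucleolin (Ncl) was at 1913, 974 and 1619 CPM across SB animals 1, 2 and 3 and at 897 ± 19.6 CPM in WT. Nop58, a core protein of small nucleolar particles, was at 321, 123 and 263 CPM against 107 ± 7.29. Polr1b, a subunit of RNA polymerase I, was at 104, 44.9 and 94.0 CPM against 45.9 ± 1.92. Leaving out SB animal 2, 18 of 20 passed, in a fit where 34.4% of all genes passed against 17.1% with all animals. Leaving out any other animal 0 of 20 did by edgeR, where 23.3% of all genes passed without SB animal 1, 17.2% without SB animal 3 and 1.4% to 2.22% without a WT animal.

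For targets in metabolism and translation, the median difference from WT on log2(CPM + 1) was 1.32, 0.62 and 1.25 in SB animals 1, 2 and 3. Of 17, 9 rose and 0 fell in edgeR, where 7.99% of all genes tested rose and 9.1% fell. Their median log2 change was 1.24. The 4 with the smallest adjusted p were the translation regulator Eif4ebp1 (log2 change 1.61, adjusted p = 0.00756), the helicase Eif4a1 (0.96, 0.0175), the cap-binding protein Eif4e (1.11, 0.0186) and the amino acid transporter Slc7a5 (1.51, 0.0304), by edgeR. Eif4e was at 95.6, 62.0 and 78.7 CPM across SB animals, against 32.8 to 38.5 CPM in WT libraries. Tfrc, the transferrin receptor that red cell precursors carry in large amounts, was at 429, 1576 and 1113 CPM, highest in the animal whose summed erythroid markers were highest. In SB animal 2, 15 of 17 were above every WT animal, as were 43.6% of all genes tested.

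Cell cycle targets gave 4 of 10 that rose and 0 that fell, where 7.99% of all genes tested rose and 9.1% fell. The list's median log2 change was 1.07. The 4 that rose were the phosphatase Cdc25a (1.36, adjusted p = 0.0099), Cks2 (2.10, 0.0137), the transcription factor E2f1 (1.73, 0.0282) and Cks1b (1.42, 0.0392), all by edgeR. E2f2 was at 108, 902 and 129 CPM across SB animals 1, 2 and 3, with WT libraries between 111 and 250 CPM. Of 7 genes that Myc is known to repress, 1 rose and 0 fell, near the 17.1% of all genes that passed. It was the cell cycle inhibitor Cdkn1a, at 187, 75.4 and 68.4 CPM across SB animals and 8.37 ± 0.0621 CPM in WT. Its log2 change was 3.72 (SE 0.46, adjusted p = 0.00863 in edgeR). Cdkn1c, a related inhibitor, was high in SB animal 1 alone, at 62.9 CPM against 3.21 and 4.21 CPM in the other SB animals.

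Over the lists above and the listed neighbours described next, 21 of 91 genes passed by edgeR, where 17.1% of all genes did, and 36 of the 89 with a p-value passed by DESeq2, where 24.9% did. With any 1 WT animal left out 0 of the 91 passed by edgeR, while genes passing among all tested then numbered 253 to 399. At an unadjusted p under 0.05 there were 26 to 28 of the 91, beside 3911 to 4153 of the 17956 to 18064 genes tested. Without SB animal 3, Hdac1 (adjusted p = 0.0629), Slc7a5 (0.0551) and Ddx1 (0.0602) did not pass and 4 of the 17 targets in metabolism and translation did, and without SB animal 1 Gnl3 did not (0.0545).

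**Figure D4:**
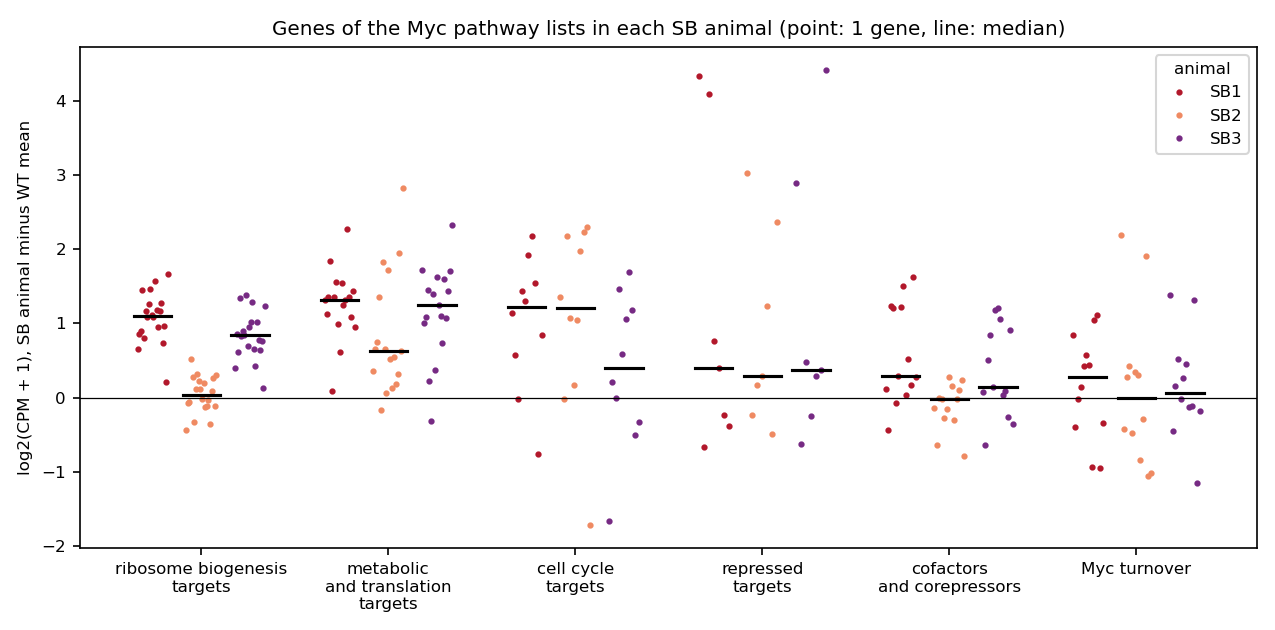
Difference of each SB animal from the WT mean, on log2(CPM + 1), for each gene of 6 pathway lists, with a black line at the median. Ribosome genes lie near 0 in SB2 (median 0.035) and above it in SB1 and SB3 (1.10 and 0.84), whereas the cell cycle medians are 1.22 in SB1, 1.21 in SB2 and 0.40 in SB3.

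Genes next to the 3 Myc genes were read because a transposon can act on neighbouring genes. Pvt1, a noncoding RNA gene 47612 bases from Myc, was at 6.49, 20.6 and 53.1 CPM across SB animals 1, 2 and 3 and 11.3 ± 0.281 CPM in WT. SB animals 1 and 3, alike in Myc, were at 0.574 and 4.69 times the WT mean of Pvt1. The log2 change of 1.24 did not pass (edgeR adjusted p = 0.265).

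Near Mycn, the helicase gene Ddx1 rose (log2 change 0.81, edgeR adjusted p = 0.0347), with 176, 126 and 178 CPM across SB animals and 91.0 ± 5.24 CPM in WT. Nbas was at 24.5, 29.2 and 41.8 CPM against 32.0 ± 1.16. Neither followed the 77.3-fold level of Mycn in SB animal 1, since Ddx1 was at 1.93 and 1.95 times the WT mean in SB animals 1 and 3.

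Near Mycl, Trit1, a tRNA-modifying enzyme gene, fell by 0.80 on the log2 scale (edgeR adjusted p = 0.0211), to 26.1, 25.2 and 23.9 CPM from 43.6 ± 1.78. The lipid transporter gene Mfsd2a, 34464 bases away, was at 247 CPM in SB animal 1, 137 times the WT mean of 1.80 ± 0.274 CPM, and at 0.877 and 0.363 CPM across SB animals 2 and 3. Mycl was lowest in that same animal. Cap1 was at 1891, 421 and 272 CPM across SB animals against 543.5 ± 17.1, and Ppt1 at 54.9, 201 and 87.7 CPM against 142 ± 8.17.

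**Figure D5:**
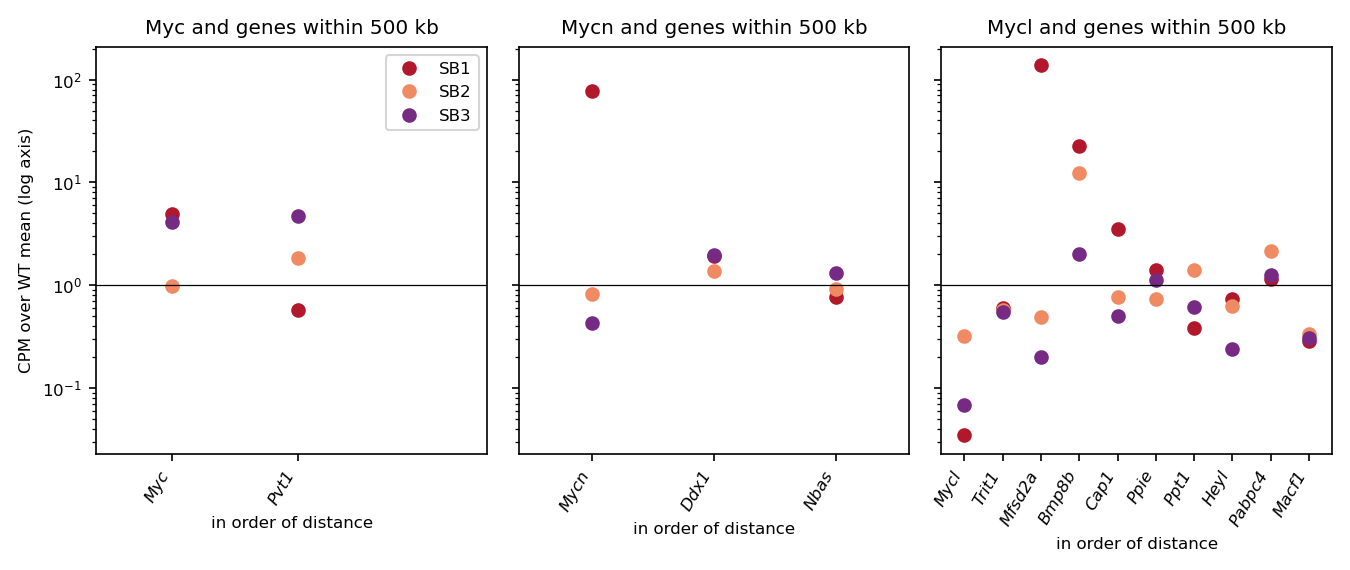
CPM over the WT mean, on a log axis, of Myc, Mycn and Mycl and of the tested genes within 500 kb of each, in order of distance, for each SB animal. Mycn in SB1 (77.3) and Mfsd2a in SB1 (137) stand far above their neighbours, and Pvt1 does not follow the animals in which Myc is high.

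For each of the 9, the genes most alike were sought by Pearson's r of log2 CPM over the 6 animals, among genes of at least 5 CPM on average. With 3 WT animals that are nearly equal, an r rests on very few animals, and it is given as a description. Myc was most like Sun1, Six5 and Polr1b (r = 0.999 for each). Mycn was most like Atp10a (0.999), Hbegf (0.998) and Scara5 (0.997), all highest in SB animal 1, with Scara5 at 434 CPM there and 1.89 to 3.21 CPM in the others. Mycl was most like Zfp938, Pxdc1 and Pgap1 (0.999 each).

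Max was most like Xcr1 (r = 0.9997), Cyba (0.999) and Tmcc3 (0.998). Xcr1, a chemokine receptor of dendritic cells, was at 0.227, 21.5 and 1.21 CPM across SB animals and 17.3 to 19.2 CPM in WT animals. Mxd1 was most like E2f2 (0.998), Mir22hg (0.992) and Foxo3 (0.992), and Mxd3 was most like Txnrd2 (0.998), Acmsd (0.997) and Tab3 (0.996), all 6 highest in SB animal 2. Mxi1 was most like Suv39h2, Cbx5 and Mms22l (0.997, 0.996 and 0.996), which are all above every WT animal in each SB animal. Mxd4 was most like Actr2, Trpc4ap and Bmp4 (0.997, 0.996 and 0.990), and Mnt was most like Poll, Sub1 and Sun2 (0.993, 0.993 and 0.992).

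Between the 2 pieces of a spleen, few of the 9 genes differed. With the animal as a block in edgeR, 0 of the 9 genes differed between piece 2 and piece 1 over all animals, where 2.16% of genes passed. At an unadjusted p under 0.05 there were 3, Mxd1, Mxd3 and Mxd4, beside 3757 of the 15523 genes tested. By DESeq2 0 of the 9 passed. In SB animals 0 of the 9 passed (1 unadjusted, Mxd4, and 0 by DESeq2), where 0% of genes did, although 3306 had an unadjusted p under 0.05 and DESeq2 called 292. For the difference of the piece effect between genotypes 0 of the 9 passed, where 1.28% of genes did, and 0 of the 9 by DESeq2. Unadjusted there were 3, Mycn, Mxd1 and Mxi1, beside 2799 of the 15523 genes. This difference and the test over all animals rest on matching sections A and B of WT to sections 1 and 2 of SB. The level of Myc in a piece of SB animal 1, 2 or 3 was within 0.109 of its other piece on log2(CPM + 1).

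In WT spleens, Mxd1 and Mxi1 were higher in piece 2, 2 of the 9 against 9.24% of genes. Mxd1 went from 88.1, 62.6 and 60.7 CPM in piece 1 to 99.3, 93.5 and 76.5 CPM in piece 2 of WT animals 1, 2 and 3, or 0.36 on the log2 scale (SE 0.0831), with an adjusted p of 0.0257 in edgeR. Mxi1 went from 48.7, 35.2 and 32.3 CPM to 52.9, 50.3 and 40.2 CPM, a log2 change of 0.31 (SE 0.0859, adjusted p = 0.0462). The summed erythroid markers of the same pieces went from 2609, 1041 and 623.5 CPM to 3346, 3308 and 1795 CPM, higher in piece 2 of each WT animal. Summed proliferation, granulocyte, macrophage, endothelial and plasma cell markers were also higher in piece 2 of each WT animal. B cell markers were lower in piece 2 of each, and T cell and megakaryocyte markers went both ways. The 6 WT libraries had the same order in Mxd1 and Mxi1 as in the summed erythroid markers. The part of any of these markers in the change was not tested. DESeq2 called Mxd1 and not Mxi1, and without WT animal 2 neither passed, with adjusted p of 0.274 for Mxd1 and 0.364 for Mxi1.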

How the data were processed

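The deposited file holds read counts per gene for 12 libraries, unstranded TruSeq poly-A, per the labels' protocols; the authors' alignment and counting steps are not described in the sources used here beyond STAR 2.5.3a, limma, mm10 and GRCm38, listed in the submitters' processing notes with no role. Of 32121 genes, 32026 matched GENCODE M21, which gave positions and exon lengths; the other 95 took 0.0271% of counts or less in any library. No row lacked a gene name.

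The 2 pieces of each animal were summed for SB against WT (3 animals each) and tested with edgeR 4.0.16 (R 4.3.3): TMM scaling, filterByExpr, robust quasi-likelihood fit, Benjamini-Hochberg adjustment, threshold 0.05. The common biological coefficient of variation was 49.7%. Piece effects were fitted on 12 libraries with the animal as block, since the labels name the animal of each piece. Genotypes share replicate numbers only by name. CPM used TMM-scaled library sizes, and log2(CPM + 1) a pseudocount of 1. DESeq2 1.42.0 and limma 3.58.1 (voom) were alternatives, beside other scalings, filters, single pieces and leaving out each animal. The fits were run on simulated data with known changes. For the genotype test, recovery of those changes was required only at a spread set below the 49.7% found here. That check does not show how many real changes the test would find.

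The 9 genes and the pathway, marker and neighbour lists were chosen with earlier results of these data known. Named genes are all 9, all relatives and the listed neighbours, up to 4 called genes per list and direction with the smallest adjusted p, further examples of a list, and the 3 genes most alike to each of the 9. Neighbours within 500000 bases outside the list, and scaling by library size alone, were added after seeing the data.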

Additional observations from a re-analysis of the deposited data

Results flagged for a closer look

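With section A of WT matched to section 1 of SB and B to 2, the piece effect of Myc differed in direction between the genotypes. The labels do not give that match, and the opposite directions rest on it. Piece 2 was higher than piece 1 in all 3 SB animals, by 0.009, 0.109 and 0.015 on log2(CPM + 1), and lower in all 3 WT animals, by 0.068, 0.138 and 0.024. The difference between the piece effects, SB minus WT, was 0.12 on the log2 scale and did not pass its own test in edgeR (adjusted p = 0.533).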

How the results depend on the processing

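In SB against WT, Mxi1 kept its direction under every alternative run and failed the test only without WT animal 2 or 3. Of the 9 genes, 1 passed by edgeR, 3 by DESeq2 and 3 by limma-voom, and 0 to 4 with 1 animal left out. Over all genes tested, 2961 passed by edgeR and 5523 by DESeq2, and 253 to 6174 with 1 animal left out. With a WT animal left out, 7.51% to 23.6% of the genes passing were higher in SB, against 46.8% with all animals, and the cause was not tested. The median log2 change of all genes was 0.11 with TMM and -0.0032 in limma-voom.

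With 1 animal left out, Mycn ranged from -0.68 (without SB animal 1) to 5.29 and Mxd1 from -0.42 (without SB animal 2) to 0.83 in SB against WT; neither passed. For piece 2 against piece 1 the ranges were -0.042 to 0.0067 for Myc, -0.061 to 0.373 for Mycn, -0.0499 to 0.086 for Mycl and -0.016 to 0.081 for Mnt, none passing. The animal as block pairs the pieces. With no replicate block, edgeR called 0 genes between pieces (526 at an unadjusted p under 0.05) and 0 for the piece effect between genotypes (192), and Mycl and Mnt were at -0.027 and -0.0013. With the block, 335 genes differed between pieces by edgeR, 1132 by DESeq2, 1861 with no filter, and 0 to 503 with 1 animal left out. For the difference of the piece effect these were 199, 466, 1218, and 0 to 536. Genes unequal among WT animals numbered 52 by edgeR, 327 by DESeq2 and 726 with no filter.

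Depth limits Mycn and Mycl most, with as few as 17 and 12 counts in a library. With 3 animals per genotype and unlike SB animals, a failed test does not show that a gene is unchanged.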

Other observations

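Among genes near the other members, chosen after their values were seen, Fut8 lay 275924 bases from Max and was at 288 and 241 CPM across SB animals 1 and 3, the 2 animals with high Myc. It was at 45.4 CPM in SB animal 2 and 32.8 ± 1.59 CPM in WT (SD, n = 3), with a log2 change of 2.55 and an adjusted p of 0.0497 in edgeR. Macf1, 347148 bases from Mycl, was at 254 to 296 CPM in the SB animals and 881 ± 47.9 CPM in WT. Bmp8b, also near Mycl, was at 5.95, 3.30 and 0.533 CPM across SB animals 1, 2 and 3 and 0.266 ± 0.0914 CPM in WT. Thbs1, among the genes that Myc is known to repress, was at 46.8, 321 and 1328 CPM across SB animals 1, 2 and 3 and 64.4 ± 23.0 CPM in WT, and did not pass.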
